A study of Mus musculus with 258 samples.

Results

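The cells described here are 113 single cells from the dorsal pancreas of E13.5 mouse embryos whose label reads Pdx1-Cre with Jmjd3 fl/fl, that is, with both copies of Jmjd3 (gene symbol Kdm6b) flanked by loxP sites and Cre driven by the Pdx1 promoter, which is active in pancreatic progenitors. They were chosen by label alone: all 44 cells sorted as Ngn3-high and all 69 sorted as Ngn3-low, out of 221 single cells in the series. The series also holds 59 WT Ngn3-high and 49 WT Ngn3-low cells of the same stage, shown beside the deleted cells where they help, and 37 other samples that are not used here. The study's design text describes an Ngn3-GFP reporter for its sorts. The WT labels name no Cre, so Cre and the deletion cannot be told apart between genotypes. The question behind the deleted cells, in the design text, is the part Jmjd3 plays in the specification of the endocrine lineage.

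The endocrine cells of the pancreas arise from a branching epithelium in which trunk cells carry Sox9 and Hes1 and tip cells start to make acinar enzymes such as Cpa1. A short pulse of the transcription factor Neurog3 (Ngn3) commits a trunk cell to the endocrine lineage, Neurod1, Insm1, Pax4 and Fev follow, and cells leave the cell cycle and fill with granins before most hormones appear. Jmjd3 is an enzyme that removes methyl groups from lysine 27 of histone H3, a mark laid down by Ezh2 that keeps developmental genes silent.

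Libraries were made cell by cell with Smart-seq2, a full-length protocol without molecular identifiers. The 113 deleted cells held 412205 to 1156647 reads in genes, with medians of 734064 in the low gate and 738979 in the high gate. The labels name no animal, so each gate is 1 sample, no difference below has a replicate check, and no p-value is given. Levels are counts per 1000000 gene reads (CPM), either per cell or over all reads of a gate, and intervals and limits cover counting error only. Over a whole gate, 3 reads correspond to 0.0575 CPM in the low gate and 0.0930 CPM in the high gate. A ratio is log2 of high over low gate level after adding 1 CPM to each, which understates the difference of low genes. Each title carries a number, 1, 2 and 5 in the low gate and 1, 5 and 6 in the high gate, whose meaning the labels do not give. Numbers 1 (18 low and 23 high cells) and 5 (15 and 15) occur in both gates, and ratios within each are given beside the pooled ones. The cells of number 5 stood apart in reads in genes per read of spike-in RNA, with medians of 66.3 and 47.7 in the low and high gates, against 23.6 for number 2 and 21 for number 6. No 2 cells had identical values (0 pairs), and every one of the 69 and 44 cells held at least 4 of 6 markers of pancreatic epithelium.

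Markers of white blood cells, mesenchyme and mesothelium were scarce, while some markers of other cell types were read at higher levels. No listed white blood cell, mesenchyme or mesothelium marker reached the 5 CPM mean level used below to call a gene measured (0 of 11, 0 of 12 and 0 of 8). Ptprc, Cd53, Fcgr1 and Tyrobp had no read in the high gate. Of 12 endothelial markers 1 was measured, and Cdh5 and Kdr had no read in either gate. At least 1 endothelial marker was present in 53 low and 23 high cells, and their sums were 38.6 and 20.9 CPM over the gates. Liver markers, several of which pancreatic cells also express, summed to 810 and 643 CPM in the low and high gates. Of these 10 markers 4 were measured, and Alb had no read in either gate. Neural crest and glia markers summed to 145 and 164 CPM, with none of Foxd3. Of these 12 markers 5 were measured, of which Ngfr and Ret were at least 2-fold higher and Erbb3 lower in the high gate. At least 1 neural crest or glia marker was present in 67 low and 39 high cells. Intestine markers summed to 15.4 and 203 CPM, with 2 of 10 measured and no read of Olfm4 or Sis. Red blood cell transcripts summed to 72.4 CPM in the low and 50.9 CPM in the high gate, with 0 to 742 and 0 to 524 CPM per cell. Of 5 measured red blood cell genes 4 were at least 2-fold lower in the high gate, but 0 within number 1 and 0 within number 5, and number 2, present only in the low gate, held 14 of the 15 low cells with 3 or more blood, endothelial or mesenchymal markers.

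The target of the deletion was lower in the deleted cells of both gates, although it was still read. Kdm6b (ENSMUSG00000018476, chr11:69398508-69420367 in GRCm38.p6) had 55.5 CPM in deleted low and 107 CPM in deleted high cells against 131 and 265 CPM in WT low and high cells. Single deleted low cells ranged from 0 through a median of 45 to 139 CPM and deleted high cells from 4.56 through 90.4 to 335 CPM, so the gates overlapped widely. The counts cover the whole gene and cannot separate the floxed exons from the rest. Kdm6b was also higher in the high gate among the deleted cells, by 0.93 on the log2 scale (0.80 within number 1 and 1.81 within number 5), beside 1.01 in WT cells. Its relative Kdm6a, an X-linked H3K27 demethylase, had 80.4 CPM in low and 127 CPM in high deleted cells, a log2 ratio of 0.65.

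The genotypes differed in sex-linked transcripts, which stands beside every WT value below. Xist, the RNA that coats the inactive X chromosome of females, reached 10 CPM in 68 of 69 low and 44 of 44 high deleted cells. The Y-linked Uty reached 10 CPM in 0 of 113 deleted cells but in 18 of 49 WT low and 31 of 59 WT high cells. The WT cells of number 1 were mostly of the other kind, with a Y-linked transcript and no Xist in 10 of 10 low and 26 of 27 high cells, while Xist was present in 5 of 5 low and 16 of 16 high WT cells of number 5. Both genotypes thus carried Xist in number 5. In number 1 the deleted cells carried it, in 17 of 18 low and 23 of 23 high cells, while the WT cells mostly did not. Kdm5d, which has a close X-linked relative, was at detection in 11 of 69 low and 4 of 44 high deleted cells, all of them with Xist, and in 3 of 5 WT low cells of number 5. These genes were looked up after Uty had been seen. The part of sex in any difference was not tested.

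The gates differed widely in deleted cells. Of 11177 measured genes, 1555 (13.9%) were at least 2-fold higher and 1956 (18%) at least 2-fold lower in the high gate, around a median log2 ratio of -0.03. The same direction and size held within numbers 1 and 5 as well for 1078 higher (9.64%) and 1390 lower genes (12.4%). These shares are the background for the gene lists below. When each cell was reduced to 300000 reads, low cells showed a median of 8107 genes and high cells 7548.5.

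The transcription factors of endocrine commitment were nearly all higher in deleted Ngn3-high cells. Of 25 listed factors 23 were measured, 22 were at least 2-fold higher and 0 lower, 20 of them also within both numbers, with a median log2 ratio of 4.23 over all 25. In WT cells, where 12.9% of 11144 measured genes were higher and 18% lower, 19 of 23 measured factors were higher, with a median of 4.35. The count in deleted cells stood above the 13.9% background, but it includes Neurog3, which is close to what the sort selected on. The lists were drawn up with earlier results of these data known.

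Neurog3 (chr10:62133090-62134763) is close to the quantity the sort selected on and is given as a description only. It ranged from 0 through a median of 9.01 to 807 CPM in low cells and from 0 through 1439 to 5158 CPM in high cells. Over the gates it had 90.8 and 1735 CPM. The gates overlapped: 34 of 69 low cells held 10 CPM or more, the level called detection from here on, and 4 of 44 high cells did not.

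Neurod1 (ENSMUSG00000034701, chr2:79452637-79456636), the helix-loop-helix factor that follows Neurog3, separated the gates far more sharply. No low cell exceeded 2.74 CPM, and the high cells ranged from 0 through 435 to 1766 CPM, with 38 of 44 (86.4%) at detection. The low gate held 0.307 CPM (95% exact Poisson interval 0.175 to 0.498) and the high gate 542 CPM (534 to 550), a log2 ratio of 8.70, with 8.41 within number 1 and 8.68 within number 5. Only the 6 high cells below detection, all at 0, overlapped the low gate.

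Fev, an ETS factor of Neurog3-descended progenitors, was never detected in low cells, whose highest value was 2.04 CPM, which for 0 of 69 cells gives a 95% exact upper limit of 5.21%. High cells ranged from 0 through 52.6 to 2389 CPM, and 27 of 44 were at detection. Its level was 0.0959 and 299 CPM in the gates, a log2 ratio of 8.10, and it differed between the numbers, with 437 CPM in the high cells of number 1 against 112 CPM in number 5 and 56.8 CPM in number 6. The same difference between numbers 1 and 5 was present in WT high cells, at 501 and 122 CPM.

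Pax4, a repressor needed for beta and delta cells, was at detection in 3 low cells and 41 high cells, with 4.58 and 617 CPM over the gates and a log2 ratio of 6.79. High cells ranged from 0 through 613 to 1467 CPM. Low cells had a median of 0 and 1 as high as 193 CPM, so the gates overlapped only at their edges. Insm1, a zinc-finger factor of endocrine delamination, had 2.80 and 125 CPM (log2 ratio 5.05) and was detected in 4 low and 38 high cells. Myt1, a zinc-finger factor of early endocrine cells, was in 0 low and 41 high cells, at 0.0767 and 213 CPM.

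Factors of later endocrine cells were present in smaller shares of deleted high cells. Pax6 had 0.825 and 325 CPM and was in 27 of 44 high cells, which ranged from 0 through 198 to 1429 CPM. Isl1, a LIM factor of maturing islet cells, was in 10 of 44 high cells, with 0.153 and 93.2 CPM over the gates and up to 1248 CPM in a cell. The gates were thus separated for both genes by a subset of high cells, and the high-gate median of Isl1 was 0.

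Factors shared with the progenitor epithelium showed smaller differences. Nkx2-2 was detected in 58 of 69 low cells and 44 of 44 high cells, with 40.8 and 280 CPM (log2 ratio 2.75). Nkx6-1 had 65.7 and 180 CPM (1.44) and Foxa2 91.1 and 254 CPM (1.47). Pdx1, whose promoter drives the Cre, had 171 and 220 CPM, a log2 ratio of 0.36, and stood at detection in 68 low and 38 high cells. The plot of levels in single deleted cells shows these contrasts cell by cell.

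**Figure D1:**
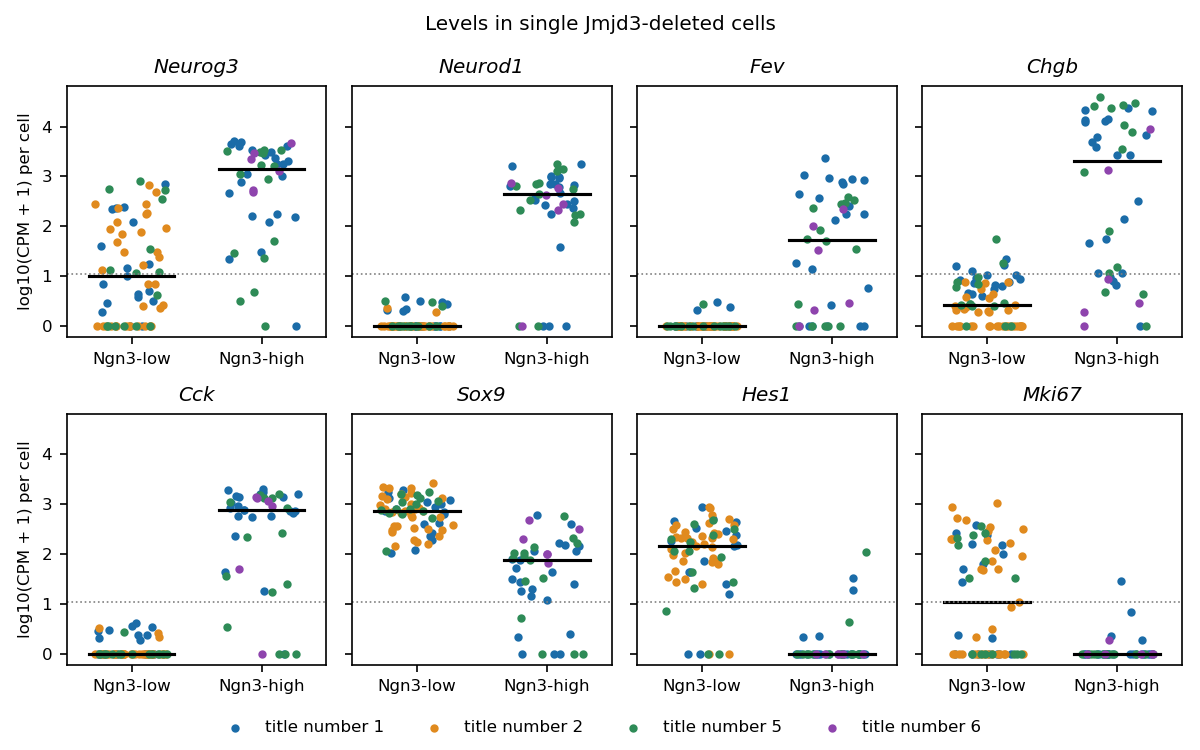
Level per cell, as log10(CPM + 1), of 8 genes in the 69 Ngn3-low and 44 Ngn3-high Jmjd3-deleted cells; each point is a cell coloured by title number, black bars are medians and the dotted line is 10 CPM. Neurod1, Fev and Cck are at or near 0 in all low cells, and Hes1 is above the line in 62 low but 3 high cells.

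Detection of Fev, Pax6 and Isl1 was nested within that of Neurod1 in the deleted high cells. Of 44 cells, 6 (13.6%, 95% exact interval 5.17 to 27.4) held Neurog3 without Neurod1 or Fev, 11 (25%, 13.2 to 40.3) held Neurog3 with Neurod1, 23 (52.3%, 36.7 to 67.5) held all of them, and 4 (9.09%, 2.53 to 21.7) held Neurod1 and Fev without Neurog3. No cell held Fev without Neurod1, which allows up to 8.04% of all high cells. Only the 6 cells without Neurod1 could have held it in this way, so the nesting rests on few cells. Each of the 27 Fev cells, 27 Pax6 cells and 10 Isl1 cells lay within the 38 Neurod1 cells. Pax4 and Chgb were not nested in this way. A cell without a read of Neurod1 held Pax4 at 1467 CPM, and another held Chgb at 81 CPM. An order in time was not tested. In the low gate, 34 cells held Neurog3 alone and 35 none of the 3 genes.

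WT high cells fell into the same 4 combinations, with 8, 11, 30 and 10 of 59 cells in the order above (13.6%, 18.6%, 50.8% and 16.9%). Within number 5, where both genotypes carried Xist, the numbers of cells were 2, 4, 6 and 3 of 15 in deleted and 2, 4, 6 and 4 of 16 in WT high cells. Each gate is 1 sample, so no difference between the genotypes in these shares was tested. When each cell was reduced to 300000 reads, the shares of deleted high cells with Neurog3, Neurod1 and Fev stayed at 90.9%, 86.4% and 61.4%.

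**Figure D2:**
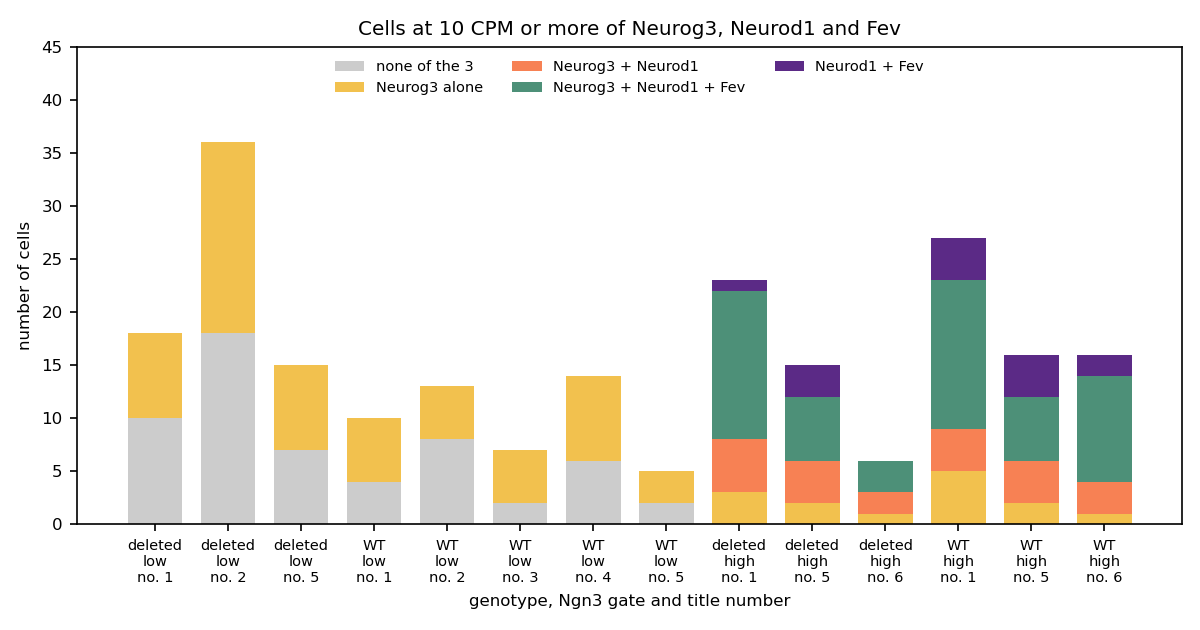
Number of cells (bar height) by genotype, gate and title number, stacked by which of Neurog3, Neurod1 and Fev reach 10 CPM. Low cells hold Neurog3 alone or none, and high cells of both genotypes hold the same 4 combinations, including 4 deleted and 10 WT cells with Neurod1 and Fev but no Neurog3.

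Levels within the deleted high gate ran in opposite directions. Across its 44 cells, Neurog3 ranked against Chgb with a Spearman rho of -0.60 (-0.67 in the 23 cells of number 1 and -0.50 in the 15 of number 5) and against Fev with -0.57. Neurog3 and Hes6, a Notch-opposing gene of early endocrine progenitors, ranked together with a rho of 0.66 (0.79 and 0.64, but -0.49 in the 6 cells of number 6). Neurod1 ranked with Fev at 0.51 and with Chgb at 0.48. These values describe cells that share a sort, a library type and a common total, and carry no p. In the 59 WT high cells Neurog3 ranked with Chgb at -0.37 and with Fev at -0.21. The 4 cells without Neurog3 were all at detection for Pax6, Isl1, Chga and Chgb, and 3 of them were of number 5.

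**Figure D3:**
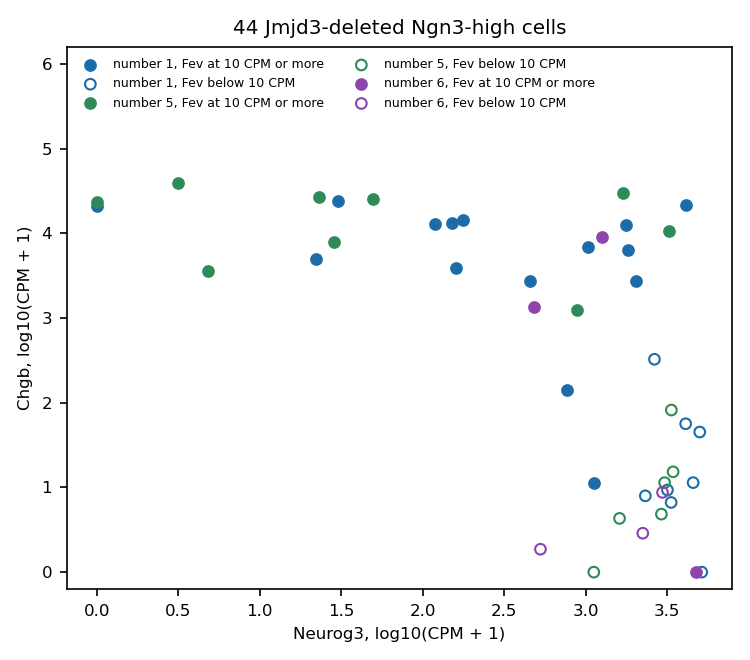
Neurog3 (x) against Chgb (y), both as log10(CPM + 1), in each of the 44 deleted Ngn3-high cells, coloured by title number and filled where Fev is at 10 CPM or more. Cells with little Neurog3 sit high in Chgb with Fev present, and most cells without Fev sit at high Neurog3 and low Chgb.

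Secretory granule genes were much higher in the deleted high gate. Of 24 listed granule and prohormone-processing genes 23 were measured and 21 were at least 2-fold higher, against the 13.9% background, with 0 lower and a median log2 ratio of 5.49. In WT cells 20 were higher, with a median of 4.83. Chgb (ENSMUSG00000027350, chr2:132781642-132795079), the granin chromogranin B, had the highest ratio of any named gene. Its low cells ranged from 0 through 1.58 to 55 CPM and its high cells from 0 through 2040 to 38855 CPM. Over the gates it had 3.99 CPM (3.47 to 4.57) and 7193 CPM (7164 to 7222), a log2 ratio of 10.49, with 9.65 within number 1 and 10.46 within number 5.

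Transcripts of granule genes were not uniform across deleted high cells. Chgb was in 33 of 44 high cells and 6 low cells, and the high cells of numbers 1, 5 and 6 held 7124, 10937 and 1643 CPM. Chga, the related granin, was in 27 high cells, all of them among the 33 with Chgb, and in 0 low cells, with 0.748 and 729 CPM. The prohormone convertase Pcsk1 had 2.46 and 200 CPM and its relative Pcsk2 0.710 and 127 CPM, in 34 and 16 high cells. Scg3 and the calcium sensor Scgn had 172 and 150 CPM in high cells and under 1 CPM in low cells.

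Other genes with high ratios were of several kinds. Slc38a5, an amino acid transporter, had 2.88 and 1874 CPM and was in 41 of 44 high cells. Tubb3, a neuronal tubulin, had 0.192 and 354 CPM, in 39 high cells. Gfra3, a co-receptor of the GDNF receptor family, had 0.499 and 383 CPM, in 42 high cells, and Baiap3, a dense-core vesicle protein, 0.959 and 494 CPM. Dbpht2 had 0.269 and 483 CPM, a log2 ratio of 8.57 beside 6.33 in WT cells.

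Hormone genes were mostly low at this stage, with Cck as the exception. Of 13 genes listed as hormone genes 7 were measured, 6 were at least 2-fold higher, against the 13.9% background, and 0 lower. The median log2 ratio was 2.29 over all 13. The 6 were Ins1, Ins2, Iapp, Pyy, Cck and Nnat, the last of which encodes no hormone but counts in the list and its median. Cck, which encodes the peptide cholecystokinin, was in 38 of 44 high cells and 0 low cells. Low cells did not exceed 3.09 CPM, and high cells ranged from 0 through 763 to 2009 CPM. Over the gates it had 0.345 and 804 CPM, a log2 ratio of 9.22 (8.93 and 9.01 within numbers 1 and 5), beside 8.98 in WT cells. Pyy, peptide YY, had 0.652 and 122 CPM and passed 100 CPM in 10 high cells.

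Insulin transcripts were concentrated in few cells of the deleted high gate. Ins2 had 4.60 and 48.1 CPM over the gates, but 3 high cells of number 5, at 1187, 973 and 507 CPM, held most of it, and the highest value among the other high cells was 68.6 CPM. Of those 3 cells, 2 also held Ins1, at 435 and 241 CPM, with Iapp at 1891 and 3249 CPM. The cell with Ins2 at 507 CPM had no read of Ins1 and 27.9 CPM of Iapp. In the low gate Ins2 reached 10 CPM in 13 of the 36 cells of number 2, at up to 36 CPM, and in 0 of the other 33. Without number 5 the log2 ratios of Ins1 and Ins2 were -1.26 and -0.36, in place of 1.95 and 3.13. Gcg had 1.52 and 1.67 CPM, and Ghrl reached 149 CPM in 1 high cell, with 0 other high cells at detection.

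The somatostatin gene followed the title number and not the gate. Sst was at detection in 15 of 15 high and 14 of 15 low deleted cells of number 5, and in 0 deleted cells of any other number. The WT cells showed the same, with 16 of 16 high and 5 of 5 low cells of number 5 at detection and 0 elsewhere. Within number 5 the medians were 72.1 CPM in deleted high, 48.4 in deleted low, 52.8 in WT high and 86 in WT low cells. Its pooled log2 ratio of 0.97 between the deleted gates was 0.00 within number 1 and 0.47 within number 5. What the number stands for was not tested.

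A word that helix-loop-helix factors of the Neurog3 and Neurod1 family are known to bind lay upstream in 14.4% of all RefSeq windows. It was in 12.7% of the windows of genes higher in deleted high cells overall and within both numbers. Of the named genes at least 2-fold higher in the high gate, 5 (Cck, Map1b, Iapp, Nkx2-2 and Ins1) held it. They are examples, and no excess is claimed. The 3 of them that were higher within both numbers and are no hormone of beta cells are printed. Each is the 250 bases before the RefSeq transcription start in GRCm38.p6, on the minus strand, written 5′ to 3′ with CAGATG or its reverse complement CATCTG in capitals. The Cck window is chr9:121495695-121495944, that of Map1b, a neuronal microtubule protein, is chr13:99516603-99516852, and that of Nkx2-2 is chr2:147186403-147186652.
Cck: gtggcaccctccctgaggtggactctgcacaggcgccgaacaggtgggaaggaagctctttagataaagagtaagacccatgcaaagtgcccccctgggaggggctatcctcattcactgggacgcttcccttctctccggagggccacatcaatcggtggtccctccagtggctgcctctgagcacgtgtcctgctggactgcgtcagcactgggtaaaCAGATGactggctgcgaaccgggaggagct
Map1b: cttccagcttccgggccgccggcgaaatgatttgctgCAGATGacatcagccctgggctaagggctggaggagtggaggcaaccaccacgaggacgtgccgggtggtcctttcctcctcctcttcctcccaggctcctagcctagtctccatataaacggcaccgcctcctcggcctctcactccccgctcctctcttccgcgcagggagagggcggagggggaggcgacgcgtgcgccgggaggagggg
Nkx2-2: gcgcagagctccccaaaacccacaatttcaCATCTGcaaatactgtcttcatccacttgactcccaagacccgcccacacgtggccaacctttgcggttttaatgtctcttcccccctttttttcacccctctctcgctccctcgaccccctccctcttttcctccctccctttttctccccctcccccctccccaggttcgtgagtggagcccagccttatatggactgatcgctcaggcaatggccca

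The word was present on either strand in 14.4% of all 32851 such RefSeq windows, in 9.71% of those of measured genes, in 12.7% of those of genes higher in deleted high cells overall and within both numbers, and in 11.1% of those of genes lower in the same way. Of the 1078 higher genes, 806 had a window in the table. Among the other named genes it was also in the windows of Gcg, which did not differ by 2-fold, and of Rbpjl and Ugt2b34, which were lower. The windows of Neurod1, Fev and Neurog3 held none. A match is a string of letters and not a site.

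Trunk and duct genes were lower in the deleted high gate, with exceptions. Of 24 listed genes 22 were measured, 14 were at least 2-fold lower, against the 18% background, and 1, Prom1, was higher. The median log2 ratio was -1.63, beside -1.76 and 14 lower genes in WT cells. Sox9, the factor of trunk progenitors, ranged from 106 through 743 to 2643 CPM in low cells and from 0 through 73.9 to 620 CPM in high cells. It had 858 and 117 CPM over the gates, a log2 ratio of -2.86, and 35 of 44 high cells still held it at detection. Of the 27 high cells with Fev, 20 held Sox9.

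Some other trunk genes were far lower. Onecut1, which acts upstream of Neurog3, was in 67 of 69 low and 0 of 44 high cells, with 94.3 and 0.434 CPM, and its highest value in a high cell, 6.96 CPM, lay below that of 67 low cells. Spp1, the duct glycoprotein osteopontin, had 4676 and 219 CPM, and Anxa2, an annexin, 345 and 4.12 CPM.

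Tip and acinar genes were lower as a group. Of 20 listed genes 14 were measured, 13 were at least 2-fold lower, against the 18% background, and 0 higher. The median log2 ratio was -3.90, beside -3.62 in WT cells. Cpa1, a carboxypeptidase of tip cells, was in 25 of 69 low cells, which ranged from 0 through 1.03 to 15782 CPM, and in 3 of 44 high cells, with a highest value of 1014 CPM. Rbpjl, the acinar subunit of the PTF1 complex, had 31.8 CPM in low cells and no read in high cells, at least 342-fold lower by the limit of 3 reads over the gate. Ptf1a, its partner, had 19.6 CPM in low cells and likewise no read in high cells.

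Notch genes were found on both sides. The median log2 ratio over 24 genes was 0.10 pooled, but -0.54 within number 1 and -0.39 within number 5. Within number 1, 11 genes were at least 2-fold lower and 6 higher, and within number 5, 10 and 6. Of 21 measured, 9 were at least 2-fold lower, among them the receptors Notch1, Notch2 and Notch3, the ligands Jag1 and Dlk1 and the targets Hes1, Heyl and Nrarp. The 5 higher genes were the ligands Jag2, Dll3 and Dll4, with Hes6 and Mfng, a sugar transferase that modifies Notch receptors. WT cells had 6 higher and 9 lower, with a median of -0.34. Among all measured genes of the deleted cells 13.9% were higher and 18% lower. Hes1, the repressor that holds trunk cells back from Neurog3, ranged from 0 through 144 to 890 CPM in low cells and from 0 through 0 to 110 CPM in high cells. It had 212 and 2.91 CPM, a log2 ratio of -5.77, and was in 62 low and 3 high cells.

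In numbers of cells the receptors were less often detected in the high gate, while ligands differed in both directions. Notch2 had 277 and 9.27 CPM and was in 69 of 69 low and 8 of 44 high cells. Notch1 had 157 and 20.6 CPM, in 65 and 16 cells. Dll4 had 24.5 and 153 CPM, in 17 and 33 cells, and Dll3 0.0767 and 110 CPM, in 0 and 24 cells. Jag1 went the other way, at 53.2 and 1.24 CPM in 41 and 1 cells, and so did Dlk1, at 324 and 142 CPM in 69 and 42 cells. Mfng had 7.19 and 303 CPM, in 10 and 40 cells. Dll1, a ligand induced by Neurog3, differed little when pooled, with 54.7 and 63.2 CPM (log2 ratio 0.20). Within numbers 1 and 5 it was more than 2-fold lower in the high gate (-1.46 and -1.28).

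**Figure D4:**
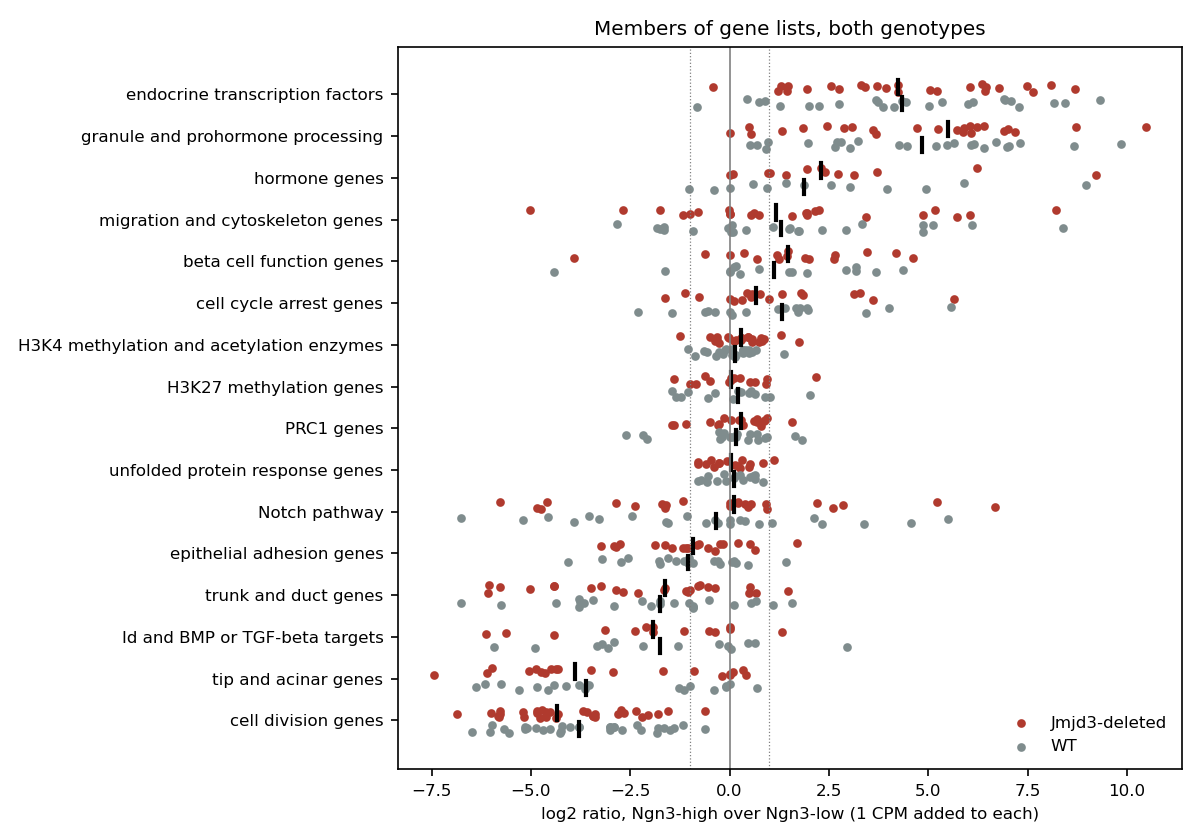
Log2 ratio of high over low gate for every member of 16 gene lists found in the table (points; red for Jmjd3-deleted, grey for WT), with each list's median as a black bar and dotted lines at 2-fold. Endocrine and granule lists lie to the right and tip and cell division lists to the left in both genotypes, and H3K27 methylation, PRC1 and unfolded protein response genes lie around 0.

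Cell division genes were lower in the deleted high gate almost without exception. Of 32 listed genes, all measured, 31 were at least 2-fold lower, against the 18% background, and 0 higher, with a median log2 ratio of -4.34. The exception was Mcm2, with 270 and 174 CPM. WT cells also had 31 lower, with a median of -3.79. Mki67, a proliferation marker, was at detection in 34 of 69 low cells and in 1 of 44 high cells, with 118 and 1.12 CPM (log2 ratio -5.81). Low cells ranged from 0 through 9.76 to 1038 CPM and high cells did not exceed 27.9 CPM. Of the 34 low cells with Neurog3, 14 also held Mki67.

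Genes of cell cycle arrest were higher in part. Of 18 listed genes 15 were measured, 8 were at least 2-fold higher and 2 lower, against backgrounds of 13.9% and 18%. The median log2 ratio was 0.67. Cdkn1a, an inhibitor of cyclin-dependent kinases, had 202 and 733 CPM, a log2 ratio of 1.85, and was in 60 low and 42 high cells, so its gates overlapped. Gadd45a, a growth-arrest gene, had 5.43 and 324 CPM, and Btg2, an antiproliferative gene, 48.3 and 595 CPM. Cdkn1c, another inhibitor of the same kinases, was lower, at 221 and 101 CPM, a log2 ratio of -1.13, beside -0.37 in WT cells.

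Of the genes that add or remove H3K27 methylation, most differed by less than 2-fold between the deleted gates, but the methyltransferase gene Ezh2 was lower in the high gate. Of 15 such genes found, Kdm6a, Kdm6b and Uty among them, 13 were measured, 1 (Phf1) was at least 2-fold higher and 2 (Ezh2 and Rbbp7) lower, with a median log2 ratio of 0.04. Ezh2, the methyltransferase, ranged from 0 through 117 to 384 CPM in low cells and from 0 through 42.6 to 362 CPM in high cells, with 143 and 70.4 CPM over the gates (-1.01, and -0.86 within number 1, where it fell short of 2-fold). Its WT ratio was -1.06. Of 19 PRC1 genes 1 was higher and 3 lower, and of 23 H3K4 methylation and acetylation enzymes 2 were higher and 1 lower. The shares in each of these lists lay below the background of 13.9% higher and 18% lower among all measured genes. Of 24 Hox and other developmental factors that H3K27 methylation is known to silence, 1, Gata6, was measured, and 0 were at least 2-fold higher or lower.

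Rest, the repressor of neuronal genes, was among the genes with the lowest ratios. Low cells ranged from 0 through 142 to 360 CPM, with 68 of 69 at detection, and high cells from 0 through 0 to 13 CPM, with 1 of 44. Over the gates Rest had 147 CPM (144 to 150) and 0.465 CPM (0.260 to 0.767), a log2 ratio of -6.66, beside -4.63 in WT cells, where 4 of 59 high cells held it. The high cells of numbers 1 and 5 had no read of it. Of the other genes with the lowest ratios, the tight junction gene Cldn10 had 196 and 0.124 CPM, the metalloprotease Adamts1 was in 69 low and 3 high cells, and the glucuronosyltransferase Ugt2b34 had 490 and 1.86 CPM. Cckar, the receptor of cholecystokinin, had 113 CPM in low cells and no read in high cells, at least 1215-fold lower by the limit of 3 reads over the gate.

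Adhesion and signalling genes also differed between the gates. Of 20 epithelial adhesion genes, all measured, 10 were at least 2-fold lower, against the 18% background, and 1, Cldn4, was higher. The median log2 ratio was -0.93. Cdh1, E-cadherin, had 583 and 189 CPM (-1.62), with single low cells from 219 to 1299 CPM and high cells from 0 to 1191 CPM, and Epcam had 1111 and 534 CPM (-1.05) and was in 44 of 44 high cells. Of 24 migration and cytoskeleton genes 15 were measured, 9 higher and 4 lower, against backgrounds of 13.9% and 18%. Within both numbers as well, 7 were higher and 2 lower. Of 14 Id genes and BMP or TGF-beta targets 8 were measured. Of these, 7 were lower, 5 of them also within both numbers, and 1, Bambi, was higher. Their list had a median log2 ratio of -1.93 pooled, -1.79 within number 1 and -0.55 within number 5. Among the lower genes was Id3, an inhibitor of helix-loop-helix factors, at 215 and 3.35 CPM. Of 16 unfolded protein response genes 1 (Atf6) was higher and 0 lower, and its log2 ratio of 1.12 was 0.61 and 0.48 within numbers 1 and 5.

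Genes of beta cell function were higher in part. Of 16 listed genes 10 were measured and 8 were at least 2-fold higher, against the 13.9% background. Of these, 5 were higher also within both numbers, and 1 listed gene was lower. Abcc8, a subunit of the ATP-sensitive potassium channel, had 55.1 and 349 CPM and was in 49 low and 43 high cells. Slc2a2, the glucose transporter GLUT2, was lower, at 165 and 9.98 CPM. Mafa, Ucn3 and Slc30a8, genes of mature beta cells, were below the measured level.

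Most differences between the deleted gates had the same direction in WT cells, which share no cell with them. Of the 1468 genes higher in deleted high cells and measured in both genotypes, 1073 were also at least 2-fold higher in WT high cells and 4 were lower by that much. Of the 1861 lower genes, 1405 were also lower and 1 was higher. The plot of both genotypes' ratios shows the named genes, with 8 picked for a large difference in red.

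Those 8 genes are described without a test, since they were picked for differing. Esrrg, an orphan nuclear receptor, had 4.83 and 10.2 CPM in deleted low and high cells but 0.0928 and 42.4 CPM in WT cells, with log2 ratios of 0.94 and 5.31. In high cells it was at detection in 8 of 44 deleted and 22 of 59 WT cells, and within number 5 in 1 of 15 and 7 of 16. Snap25, a SNARE protein of regulated secretion, had 64.4 CPM in deleted and 42.6 CPM in WT high cells. Its larger ratio of 5.90 against 3.02 arose in the low gate, where WT cells of number 5 held 43.7 CPM through 1 cell at detection out of 5.

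Enpep, an aminopeptidase, differed in the high gate itself, with 21.1 CPM in deleted and 0.299 CPM in WT high cells and 13 of 44 against 0 of 59 cells at detection. Within number 5 it was in 5 of 15 deleted and 0 of 16 WT high cells. Prkar2b, a regulatory subunit of protein kinase A, had 13.3 CPM in deleted high and 1.77 CPM in WT high cells, in 9 and 3 cells. Cxcl12, a chemokine, had 4.96 CPM in deleted high and 82.5 CPM in WT high cells, in 3 and 7 cells. Ccnb2, a mitotic cyclin, had 0.186 and 31.1 CPM, in 0 and 6 cells, so the difference rested on few WT cells. Gm8773 had log2 ratios of 5.16 in deleted and 1.60 in WT cells, and Chrdl1, a BMP antagonist, of -5.58 and -1.94.

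**Figure D5:**
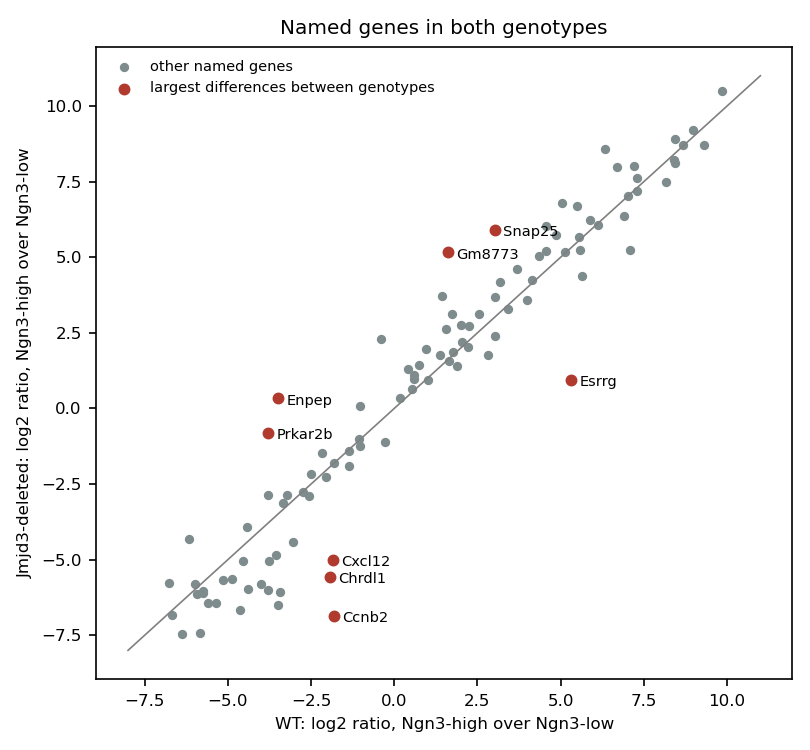
Log2 ratio of Ngn3-high over Ngn3-low in WT cells (x) against Jmjd3-deleted cells (y) for each named gene; the line marks equal ratios and red points are the 8 genes picked for a large difference. Esrrg lies far below the line (5.31 in WT, 0.94 in deleted cells) and Enpep above it (-3.50 and 0.33).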

How the data were processed

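Single cells were sorted by Ngn3 level, amplified with Smart-seq2 with spike-in RNA added, and sequenced, per the labels' protocols. The deposited table holds whole-number counts of reads per gene made by the authors, not normalized. The build mm10 and the tools TopHat2 (2.1.0), HTSeq (0.6.0) and Bowtie2 come from the submitters' processing notes. A strand setting was not given in the sources used here. Overlapping and antisense genes and close copies are therefore uncertain.

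The 92 spike-in rows were left out and 40824 gene rows kept (0 columns belonged to no sample). Reads were added up per gate and divided by the gate's total (CPM). A gene counted as measured at a mean of 5 CPM or more over its 2 gates, and as higher or lower at a log2 ratio of 1 or -1. Intervals are at 95%, exact Poisson for sums and Clopper-Pearson for shares of cells. No doublet caller was run and no cell was left out.

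Named genes are 29 fixed ones, the 10 highest and 10 lowest ratios with 20 CPM and 25% of cells at detection in the higher gate and one direction within numbers 1 and 5, up to 4 such members per list past 2-fold, and 4 genes each way with the largest difference from WT; list members outside this rule (such as Notch2 or Pcsk1) and the sex-linked genes were named after their values were seen. Members and the 27 lists were chosen with earlier results of these data known. Gene positions and upstream sequences are from RefSeq (GRCm38.p6). Calculations used Python 3.11.15, pandas 2.3.3 and scipy 1.17.1, tested on simulated data. The alternatives are given in the closing section. Some genes are not reported here.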

Additional observations from a re-analysis of the deposited data

How the results depend on the processing

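The counts of genes at least 2-fold higher or lower stayed within 1.5 times the values above with means per cell, 0.1 CPM added, centring on the median gene, number 1 or number 5 alone, numbers 1 and 5 pooled, or number 5 left out. With the mean of the ratios within numbers 1 and 5 they were 1739 higher and 2117 lower. The labels do not say that the number marks a replicate, so these counts are no replicate check. With 10 CPM added, 1264 genes were lower and 844 also within both numbers. Without a minimum level 2420 were higher. With a minimum of 20 CPM, 977 were higher and 1080 lower, 696 and 814 of them within both numbers, since fewer genes were measured.

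Leaving out cells with 3 or more markers of another type removed 58 of 69 low and 13 of 44 high cells. Of those removed, 54 and 8 had 3 or more liver markers. Afp then stood at 2.19 in place of -2.17, but Afp is itself on the liver marker list used to remove cells. Atf6 stood at -0.04 in place of 1.12, and the cause was not tested. Leaving out only cells with blood, endothelial or mesenchymal markers, chosen after seeing the data, gave 1587 higher and 1981 lower. Without number 5, also chosen later, Ins1 stood at -1.26 and Ins2 at -0.36; most of their reads in the high gate came from number 5. At 1 CPM, Neurod1 was present in 15.9% of low cells in place of 0%, and Neurog3 in 68.1%.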

Other observations

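Globin reads in low cells were most often found in title number 2 in both genotypes. The adult beta-globin gene Hbb-bs was at detection in 16 of 36 deleted and 13 of 13 WT low cells of number 2, against 3 of 18 deleted low cells of number 1, and 0 of 15 deleted and 0 of 5 WT low cells of number 5. The alpha-globin gene Hba-a1 was in 15 of 36 and 11 of 13 low cells of number 2. Red blood cell markers were not limited to number 2: their sum reached 3053 CPM in a WT low cell of number 4 and 524 CPM in a deleted high cell of number 1, and its median was 33.6 CPM in the 6 deleted high cells of number 6 beside 40.8 CPM in deleted low cells of number 2. The origin of these reads was not tested.

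Immediate early genes differed between the gates in both directions. Fos had 32.1 CPM in deleted low and 133 CPM in deleted high cells, Egr1 17.6 and 121 CPM, and Jun 239 and 68.1 CPM. In WT cells Fos had 21.6 and 103 CPM, and Jun 260 and 73.7 CPM. The intestine markers Vil1, a microvillus protein, and Tff3, a trefoil peptide, were higher in deleted high cells, at 11.9 and 163 CPM and at 0.901 and 38.3 CPM, while Cdx2 and Sis were not measured.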
